A study of Mus musculus with 12 samples.

Results

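The cornified envelope genes of the epidermal differentiation complex are the loricrin, involucrin, small proline-rich (Sprr), late cornified envelope (Lce) and filaggrin-type genes that lie together on mouse chromosome 3. They were chosen by gene name alone: every name that starts with Lce or Sprr and a digit, and Lor, Flg, Flg2, Ivl, Hrnr, Rptn, Crnn, Tchhl1 and Lelp1. The DNA microarray carried 36 such genes on 42 probes, out of 27373 gene names in all, and no probe was named Crnn. The RNA came from the shaved back skin of male C57BL/6J mice, 8 weeks old at the start, that received 200 µL per day of 3% MXD (minoxidil, the positive control), 10% N-CE (a cell extract of the cactus Notocactus ottonis) or VC, the vehicle of propylene glycol, ethanol and water (5:3:2). Skin was taken after 1, 2 or 3 weeks (1W, 2W, 3W), and the RNA of 6 mice was pooled per group, so that each treatment and week is 1 pool. A treated pool and the same week's VC pool were labelled with Cy3 and Cy5, placed together on an array, and run again with the dyes swapped, so 12 arrays gave 6 comparisons. Array 1 below has the treated RNA in Cy5 and array 2 in Cy3, and paired values are in that order. The MXD and N-CE comparisons of a week share their VC pool and their slide, so slide and week cannot be told apart. An SD below is over the 2 arrays of a dye swap (n = 2) and measures technical spread, not the spread between mice.

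The cornified envelope is the protein shell that replaces the plasma membrane of a dying keratinocyte. Transglutaminases cross-link loricrin, involucrin, Sprr and Lce proteins into it, while the filaggrin-type proteins bundle keratin filaments and hold water in the outermost layer. In resting skin the Lce1 genes and loricrin are made in the upper living layers of the epidermis. Many Sprr genes and the Lce3 genes are known instead as genes that keratinocytes switch on after injury or inflammation of the barrier.

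The sequence upstream of the start sites is shown for members whose values are described below, and it differed between the families. RefSeq promoter sequences (build GRCm38.p6) were held for 33 of the 36 genes, and the 250 bases before each start were searched on both strands. The motif TGANTCA was present in 6 of 7 Sprr2 promoters (85.7%), in 0 of 12 Lce1 promoters and in 6.75% of all 32851 promoters. It covers TGAGTCA and TGACTCA, the element that AP-1 (Fos and Jun) proteins bind, and also the variants TGAATCA and TGATTCA. It was also present in 2 of 4 other Sprr promoters, 4 of 5 of the filaggrin type and 2 of 3 of Lor, Ivl and Lelp1, and in 0 of 2 Lce3 promoters. Of the members called higher at MXD 1W, the Sprr2 genes, Sprr1b, Flg and Rptn had it, and Lce3c and Lce3f did not. Of those called higher at MXD 2W, Sprr1a, Sprr1b, Sprr2f, Sprr2h, Ivl and Tchhl1 had it, and Lce3c did not. Of those called lower at MXD 2W, Lor, Flg2 and Sprr2d had it, and Hrnr and the 12 Lce1 genes did not. Lce1f, also called lower, had no promoter sequence. The matches in Sprr2, Sprr1a, Lor and Ivl were TGAGTCA or TGACTCA. Those in Sprr1b, Flg, Flg2 and Tchhl1 were the variant TGAATCA, and that in Rptn was TGATTCA. A relation between the motif and the direction of change was not tested. The motif TATAAA was present in 6 of 7 Sprr2 promoters, in 2 of 12 Lce1 promoters (16.7%) and in 12.4% of all promoters. The core of the antioxidant response element, TGACNNNGC, which can overlap TGANTCA, was found in 4 of 33 member promoters (12.1%) and in 10.2% of all. In the 5 promoters below, capitals mark TGANTCA and TATAAA, which do not overlap in them.
Sprr2d promoter, chr3:92338890-92339139, plus strand: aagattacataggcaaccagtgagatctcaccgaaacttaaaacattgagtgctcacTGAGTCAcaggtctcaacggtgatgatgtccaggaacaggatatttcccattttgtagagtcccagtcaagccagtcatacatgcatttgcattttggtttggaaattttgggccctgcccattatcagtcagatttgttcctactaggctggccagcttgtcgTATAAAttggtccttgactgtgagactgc
Sprr2h promoter, chr3:92385435-92385684, plus strand: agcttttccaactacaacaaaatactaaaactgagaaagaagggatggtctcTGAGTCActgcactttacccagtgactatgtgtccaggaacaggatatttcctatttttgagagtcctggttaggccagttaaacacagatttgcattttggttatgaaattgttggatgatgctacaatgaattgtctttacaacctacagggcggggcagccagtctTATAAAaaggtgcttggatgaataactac
Ivl promoter, chr3:92573736-92573985, minus strand: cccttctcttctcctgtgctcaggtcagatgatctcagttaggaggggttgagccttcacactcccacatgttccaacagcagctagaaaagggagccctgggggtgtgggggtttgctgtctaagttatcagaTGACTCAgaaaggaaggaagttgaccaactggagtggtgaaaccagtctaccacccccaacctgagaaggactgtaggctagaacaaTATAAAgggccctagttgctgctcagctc
Lce1c promoter, chr3:92678997-92679246, plus strand: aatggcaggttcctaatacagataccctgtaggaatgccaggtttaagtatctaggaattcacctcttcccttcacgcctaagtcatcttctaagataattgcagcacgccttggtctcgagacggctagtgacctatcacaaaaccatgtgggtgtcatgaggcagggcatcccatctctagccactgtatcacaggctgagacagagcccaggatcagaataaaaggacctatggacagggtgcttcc
Lce1m promoter, chr3:93019062-93019311, minus strand: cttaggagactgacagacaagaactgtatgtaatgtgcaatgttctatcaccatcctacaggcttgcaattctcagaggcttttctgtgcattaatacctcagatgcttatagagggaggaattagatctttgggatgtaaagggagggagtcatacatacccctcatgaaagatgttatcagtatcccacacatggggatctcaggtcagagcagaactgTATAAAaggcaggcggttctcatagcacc
In Sprr2d the AP-1 motif began 193 bases and TATAAA 29 bases before the start, and in Sprr2h 198 and 29 bases. In Ivl they began 116 and 29 bases before it. The Lce1c stretch holds neither set of letters, and the Lce1m stretch holds TATAAA alone. A match describes these letters only, and a missing match says nothing about binding elsewhere.

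The Sprr2 genes are close copies of each other, which bears on how far their probes can be told apart. Probe positions are those of the array files on build mm9, and capitals mark the longest run of letters that a probe shares with another Sprr2 probe.
Sprr2b probe, chr3:92121449-92121508: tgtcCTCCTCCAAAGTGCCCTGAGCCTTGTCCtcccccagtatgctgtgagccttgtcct
Sprr2k probe, chr3:92237308-92237367: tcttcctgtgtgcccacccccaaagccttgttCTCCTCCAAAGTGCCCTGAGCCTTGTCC
Sprr2e probe, chr3:92156847-92156906: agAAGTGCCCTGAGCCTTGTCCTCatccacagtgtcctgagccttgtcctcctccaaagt
The Sprr2b and Sprr2k probes share a run of 28 of their 60 bases, and Sprr2b and Sprr2e share 22. The accessions given for the Sprr2e probe also name Sprr2i, and those of both Sprr2a1 probes also name Sprr2a2. Signals of these genes may therefore include a neighbour's RNA, and Sprr2b, Sprr2e and Sprr2k are not independent measurements. The longest shared run was 10 bases for the Sprr2d probe, 7 for Sprr2f and 10 for Sprr2h. Among the Lce1 probes the longest shared run was 17 bases. Runs were compared between probes only, not with the RNA of the related genes. A short run therefore does not show that a probe reads its own gene alone. Whether the Sprr2d, Sprr2f, Sprr2h and Lce1 probes are separate measurements was not tested.

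Most members were measured in every comparison. A gene was counted as measured where the treated or the VC channel of its brightest probe was well above background on both arrays. Over the 3 weeks in order, that held for 33, 34 and 34 members in MXD and for 32, 33 and 29 in N-CE. Lelp1 and Sprr3, a Sprr gene best known from other stratified epithelia, were not well above background in any comparison. Tchhl1 was not in MXD or N-CE at 1W, and Sprr2f was not in N-CE at 1W. Lce1f in N-CE at 2W, and Flg2, Ivl, Lce1f, Lor and Sprr2h in N-CE at 3W, had a spot marked as an outlier on 1 array and were left out there. A gene was called, and is said to have risen or fallen, with an error-model P below 0.01 on both arrays, the same direction on both, and a mean fold above 1.5 or below 0.75. Where signals of a called gene are said to lie wholly above or below those of VC, the call nearly implies it. Such a statement describes the readings and is no further support. Since whole skin was measured, fewer cells of a type and less RNA per cell cannot be told apart.

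In skin treated with MXD for 1W, 11 of the 33 measured members (33.3%) were called higher than VC and 0 were called lower. Over all 17263 measured genes of this comparison, 1.34% were called higher and 1.36% lower. The 11 were Sprr2b, Sprr2d, Sprr2e, Sprr2f, Sprr2h and Sprr2k, Sprr1b, Lce3c and Lce3f, and the filaggrin-type genes Flg and Rptn. The median log2 fold was 1.12 ± 0.19 (SD of the array medians) over the 9 Sprr2 genes and 0.02 ± 0.03 over the 13 Lce1 genes, against -0.01 over all measured genes.

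**Figure D1:**
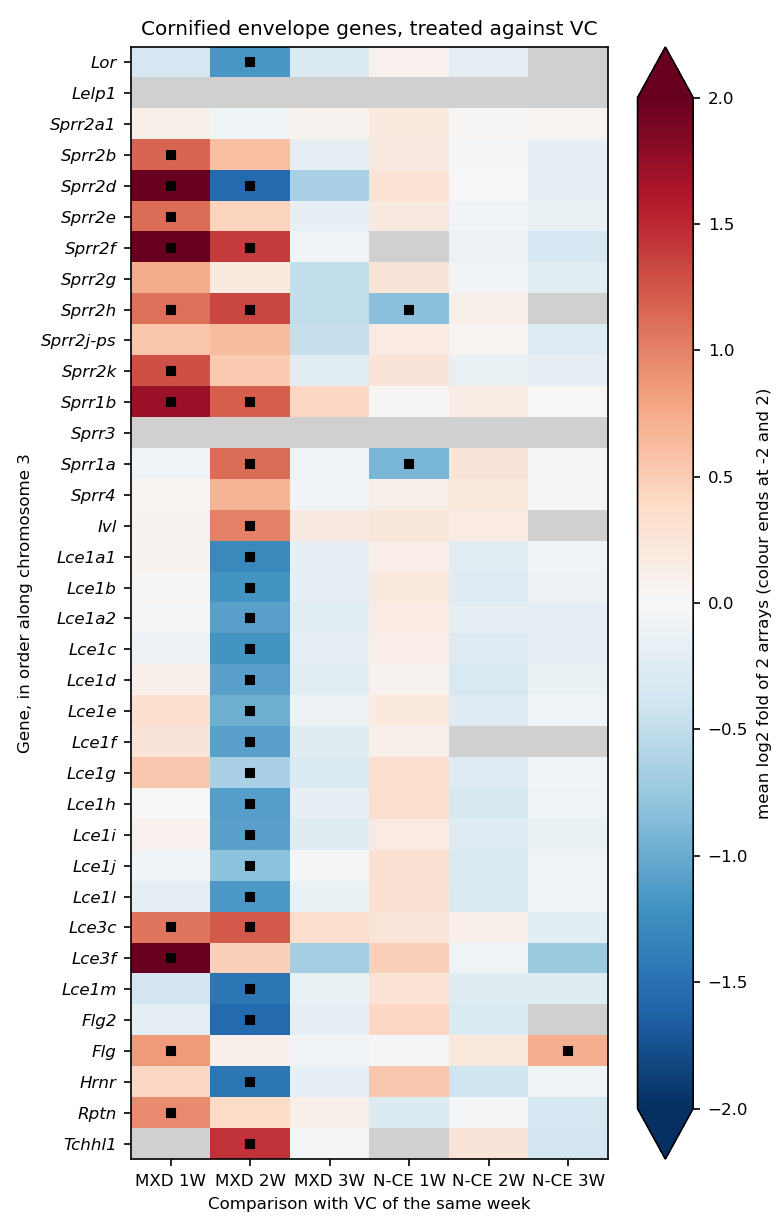
Mean log2 fold (treated over VC, 2 arrays) of the 36 genes in their order along chromosome 3, for the 6 comparisons. Black squares mark called genes and grey marks genes not measured. The 11 squares of MXD 1W lie on Sprr2, Sprr1b, Lce3, Flg and Rptn, and the MXD 2W column is blue over the whole Lce1 block.

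Sprr2d, which encodes a small proline-rich substrate of transglutaminases, rose most among the members above background in both groups. Its processed signal was 237 and 373 in VC against 2309 and 2849.6 in MXD on the 2 arrays. The log2 folds were 3.29 and 2.93, a mean of 3.11 ± 0.25 or 8.63-fold, with P of 4.5e-19 and 7.05e-18. Both MXD signals lay above both VC signals by several fold. Sprr2f had 5.19 and 3.93 in VC, where it was not well above background on either array, and 56 and 61.6 in MXD. From the single-channel signals Sprr2f was at least 1.46-fold higher in MXD, since its log2 ratio of 3.70 ± 0.38 rests on VC signals below background and came to 0.62 with normexp background correction and loess.

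The other called Sprr genes rose less than Sprr2d, with the arrays close together. Sprr1b, an envelope precursor that squamous cells make under stress, had 159 and 185 in VC and 569 and 566 in MXD. Its log2 fold was 1.73 ± 0.16. Sprr2k read 329.8 and 431 in VC and 903 and 948 in MXD, a log2 fold of 1.29 ± 0.22. Sprr2b read 972 and 1026 against 2334 and 2135, and Sprr2e read 587 and 648 against 1389 and 1292. Their log2 folds of 1.16 ± 0.15 and 1.12 ± 0.18 lie within the spread of Sprr2k, whose probe letters they share in part. Sprr2h read 204 and 261 in VC and 494 and 493 in MXD, a log2 fold of 1.10 ± 0.25. In all of these the treated signals lay above both VC signals.

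The 3 remaining Sprr2 genes were not called. Sprr2g had a log2 fold of 0.74 ± 0.29 and Sprr2j-ps, a pseudogene, had 0.55 ± 0.11, both at signals of 143 or lower. The 2 probes of Sprr2a1 differed. The bright one read 15035 and 16333 in VC and 17144 and 16688 in MXD, a log2 fold of 0.11 ± 0.11. The dim one read 341 and 364 against 1697 and 1538, a log2 fold of 2.20 ± 0.17, which passed the thresholds, so the call of this gene depends on the probe. Among the other Sprr genes, Sprr1a and Sprr4 had log2 folds of -0.07 ± 0.03 and 0.04 ± 0.17.

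Both Lce3 genes rose at MXD 1W. Lce3f, a late envelope gene of the injury-linked Lce3 group, had 58.6 and 69.7 in VC and 445 and 507 in MXD, a log2 fold of 2.89 ± 0.04. Lce3c had 1931 and 2207 against 3959 and 4777, a log2 fold of 1.07 ± 0.06, and its second probe, whose accessions also name Lce3b, gave 1.06 ± 0.14. With normexp and loess the Lce3f value was 1.71, the Sprr2d value 2.75 and the Lce3c value 1.05.

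Of the filaggrin-type genes, Flg and Rptn rose while Flg2 and Hrnr did not pass. Flg, the gene of profilaggrin, read 2887 and 2814 in VC and 5417 and 4878 in MXD, a log2 fold of 0.85 ± 0.08. Rptn, the gene of repetin, read 1298 and 1363 against 2423 and 2735, a log2 fold of 0.95 ± 0.07. Both treated signals lay above both VC signals in these genes. Hrnr, the gene of hornerin, read 28659 and 28269 in VC and 34778 and 41409 in MXD, a log2 fold of 0.41 ± 0.19. Flg2, which encodes a filaggrin relative, read 20749 and 18279 against 17629 and 16416, a log2 fold of -0.20 ± 0.06. Lor, the gene of the most abundant envelope protein, read 120258 and 130378 in VC and 106966 and 91695 in MXD, a log2 fold of -0.34 ± 0.24. Ivl, the gene of the early scaffold protein involucrin, read 1038 and 1079 against 1086 and 1141, a log2 fold of 0.07 ± 0.01. None of these 4 genes was called. The 13 Lce1 genes ran from -0.36 ± 0.13 for Lce1m to 0.54 ± 0.01 for Lce1g, with 4 above 0 and 4 below 0 on both arrays, and none was called.

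After 2W of MXD members were called in both directions, and only Lce1 was called lower as a whole family. Of 34 measured members, 17 (50%) were called lower and 7 (20.6%) higher, or 12 higher from array 1 alone, where 11% and 6.8% of all 17130 measured genes were called lower and higher. The 17 were all 13 Lce1 genes, Lor, Flg2, Hrnr and Sprr2d. The 7 were Sprr1a, Sprr1b, Sprr2f, Sprr2h, Lce3c, Ivl and Tchhl1. Among the 1495 measured genes with a mean signal of 10000 or more, 14.8% were called lower and 7.83% higher.

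**Figure D2:**
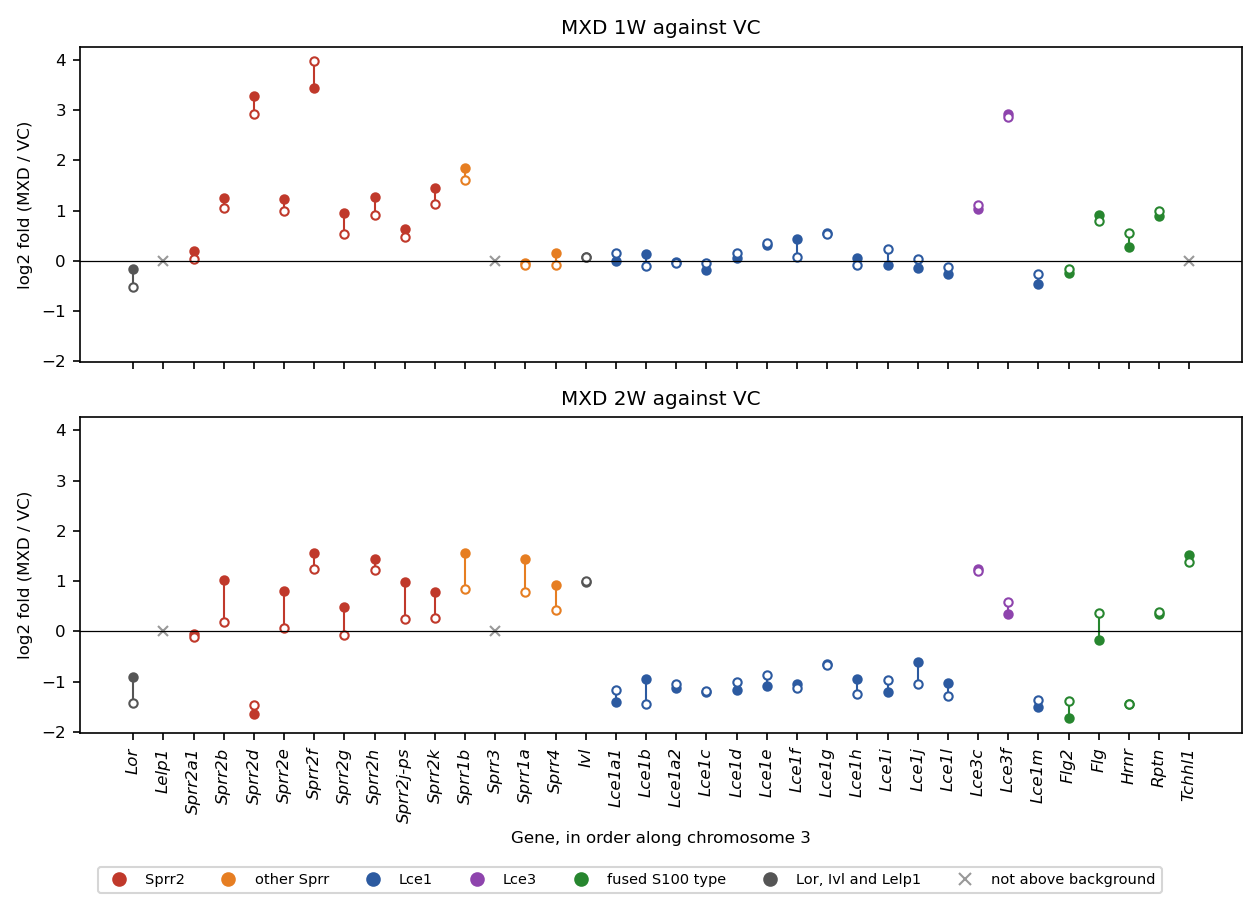
Log2 fold (MXD over VC) on each of the 2 arrays, in gene order along chromosome 3. Filled circles are array 1 (MXD in Cy5), open circles array 2 (MXD in Cy3), and crosses at 0 mark genes not above background. At 1W Sprr2 and Lce3 stand above 0 and Lce1 lies around it. At 2W all Lce1 points, Lor, Flg2, Hrnr and Sprr2d lie below 0 on both arrays.

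The Lce1 genes fell as a block. Their median log2 fold was -1.09 ± 0.03 (SD of the array medians), against 0.02 over all measured genes, and all 13 lay below 0 on both arrays. The largest fall was that of Lce1m, from 169769 and 116141 in VC to 59758 and 45021 in MXD, a log2 fold of -1.44 ± 0.10. The smallest was that of Lce1g, from 6590.4 and 5067 to 4209.9 and 3206, a log2 fold of -0.65 ± 0.01. In both, the MXD signals lay below both VC signals. A second, dim Lce1g probe, at 89.6 and 94.2 in VC, had log2 folds of 0.01 and -0.94 and did not pass. The second probes of Lce1b and Lce1j gave -1.18 ± 0.23 and -1.12 ± 0.38, which passed. On arrays 1 and 2 the log2 folds were -1.41 and -1.17 for Lce1a1, -0.95 and -1.45 for Lce1b, -1.20 and -1.19 for Lce1c, and -1.02 and -1.28 for Lce1l. They were -0.94 and -1.25 for Lce1h, -1.21 and -0.97 for Lce1i, -1.12 and -1.04 for Lce1a2, -1.16 and -1.0 for Lce1d, and -1.04 and -1.13 for Lce1f. Lce1e had -1.08 and -0.86, and Lce1j -0.60 and -1.05. The VC signals of the 13 genes on array 1 ran from 1866 for Lce1l to 169769 for Lce1m, and no spot was saturated. A part of signal level in these folds was not tested.

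Lor, Flg2 and Hrnr, all bright in VC, also fell, while the bright Sprr1a and Lce3c rose. The bright Sprr2a1 probe had a log2 fold of -0.09 ± 0.04. The dim Sprr2a1 probe had -0.73 ± 0.30 and passed P on array 2 alone. Lor read 213892 and 187867 in VC and 113852 and 69684 in MXD, a log2 fold of -1.17 ± 0.37. Flg2 read 36325 and 23621 against 10961 and 9083, a log2 fold of -1.55 ± 0.25. Hrnr read 52172 and 37440.2 against 19091 and 13792, a log2 fold of -1.45 ± 0.01, and its second probe gave -1.45 ± 0.12. In each gene both MXD signals lay below both VC signals. Flg, in contrast, had log2 folds of -0.17 and 0.37 on the 2 arrays, a mean of 0.10 ± 0.38. Rptn had 0.34 and 0.38.

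The members that rose at 2W came from 5 families, and in Sprr2 they were 2 of 9, beside 1 that fell. Ivl read 2729.9 and 1933 in VC and 5425 and 3868 in MXD, a log2 fold of 1.00 ± 0.01. Sprr1a read 45698 and 59146 against 124039.5 and 101329.8, a log2 fold of 1.11 ± 0.47. Sprr1b read 1291 and 1232 against 3786 and 2227, a log2 fold of 1.20 ± 0.49. The wide SDs of Sprr1a and Sprr1b come from higher folds on the array with MXD in Cy5, and both arrays passed the P threshold. Sprr2h read 4478 and 3509 in VC and 12228 and 8175 in MXD, a log2 fold of 1.33 ± 0.16. Sprr2f read 219 and 211 against 645 and 499, a log2 fold of 1.40 ± 0.22. Lce3c read 15483 and 13470.2 against 36562 and 31054, a log2 fold of 1.22 ± 0.02. All 6 genes were higher in MXD than in VC on both arrays without overlap. Tchhl1, a trichohyalin-like gene of the fused S100 type, read 149 and 137 against 426 and 357, a log2 fold of 1.45 ± 0.09, or 0.79 with normexp and loess.

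Sprr2d was the only member called in opposite directions in the 2 weeks. It read 401 and 334 in VC and 127 and 122 in MXD at 2W, a log2 fold of -1.56 ± 0.14, or -0.93 with normexp and loess, after the rise at 1W. Of the 11 members called higher at 1W, 4 (36.4%) were called higher at 2W, which is 57.1% of the 7 called then. These were Sprr1b, Sprr2f, Sprr2h and Lce3c. Sprr2b, Sprr2e and Sprr2k had log2 folds of 0.60 ± 0.58, 0.44 ± 0.52 and 0.52 ± 0.36 at 2W, with array 2 near 0, and were not called. Lce3f had 0.47 ± 0.17 and was not called.

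**Figure D3:**
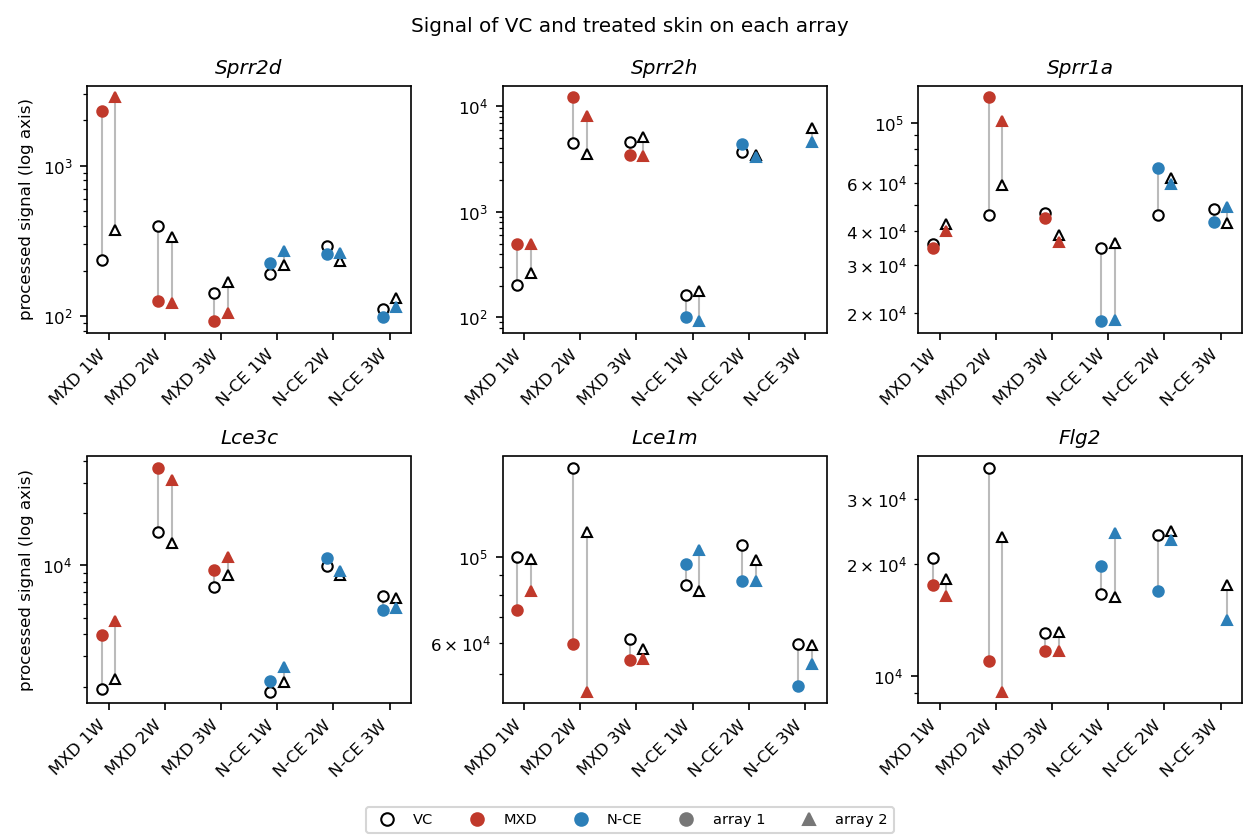
Processed signal (log axis) of VC (open) and treated skin (red MXD, blue N-CE) on each array for 6 members, joined by a line for each array. Sprr2d is higher in MXD at 1W and lower at 2W, Lce1m and Flg2 are lower at MXD 2W, and Sprr1a is lower in N-CE at 1W.

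At MXD 3W no member was called, out of 34 measured. Over all 16394 measured genes, 0.311% were called higher and 0.305% lower. The median log2 fold of the members was -0.16 ± 0.04, against 0.00 over all measured genes, and 29 of 34 lay below 0. Without the P criterion 4 members had both arrays below 0 and a mean fold below 0.75. The furthest from 0 were Lce3f, which read 159 and 222 in VC and 111 and 124 in MXD (log2 fold -0.68 ± 0.23), and Sprr2d, which read 142 and 169.8 against 92.6 and 105 (log2 fold -0.65 ± 0.06). The Lce1 genes had a median of -0.17 ± 0.02, with 12 of 13 below 0 on both arrays. On arrays 1 and 2, Lor had log2 folds of -0.13 and -0.44, Ivl 0.17 and 0.20, Flg -0.12 and -0.02, Flg2 -0.16 and -0.16, Hrnr -0.20 and -0.15, Rptn 0.11 and 0.10, and Tchhl1 -0.09 and 0.03. None of these passed the fold and P thresholds.

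After 1W of N-CE, 2 of 32 measured members (6.25%) were called lower and 0 higher, where 2.98% of all 17013 measured genes were called lower and 0.582% higher. Sprr1a read 34489 and 36194 in VC and 18607 and 18836 in N-CE, a log2 fold of -0.92 ± 0.04. Sprr2h read 163 and 179 against 101 and 91.6, a log2 fold of -0.83 ± 0.19, or -0.46 with normexp and loess. Both genes lay below VC on both arrays without overlap, and both were called higher in MXD at 2W. Of the other members Rptn and Flg had means below 0. The median was 0.18 ± 0.03 over the 32, against 0.02 over all measured genes, and 28 of 32 were above 0. All 13 Lce1 genes had a mean above 0, between 0.07 and 0.32, and none was called. Hrnr read 20286 and 22593 in VC and 26391 and 36476 in N-CE, a log2 fold of 0.54 ± 0.22, and its second, dimmer probe gave 0.66 ± 0.08, which passed. On arrays 1 and 2, Lor had log2 folds of 0.17 and 0.00, Ivl 0.10 and 0.34, Flg 0.08 and -0.12, Flg2 0.25 and 0.58, and Rptn -0.30 and -0.25. None of these was called.

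After 2W of N-CE no member was called, out of 33 measured, where 0.128% of all 17192 measured genes were called higher and 0.0814% lower. Hrnr, the furthest from 0, read 34758 and 25457 in VC and 25041 and 20179 in N-CE, a log2 fold of -0.40 ± 0.10. Lce1h was next, with 4281 and 7897 in VC and 3795 and 5706 in N-CE, a log2 fold of -0.32 ± 0.21. The 12 measured Lce1 genes lay between -0.32 and -0.19, all 12 below 0 on both arrays, with a median of -0.26 ± 0.08. The MXD median of that week, over the same VC pool, was -1.09. Sprr1a had log2 folds of 0.58 and -0.07 on arrays 1 and 2, and Sprr1b had 0.59 and -0.29, so that their arrays differed in sign. Lor had 0.11 and -0.49, Ivl 0.25 and 0.09, Flg 0.19 and 0.23, Flg2 -0.50 and -0.09, Rptn -0.16 and 0.07, and Tchhl1 0.18 and 0.33.

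At 3W of N-CE only Flg was called, out of 29 measured members (3.45%), where 0.241% of all 16204 measured genes were called higher and 0.241% lower. It read 502 and 953 in VC and 829 and 1559 in N-CE, log2 folds of 0.73 and 0.71. The VC pool of that week read 442 and 376 for Flg on the MXD arrays, so readings of that VC pool differed between arrays by more than the fold. Flg in MXD at 3W was -0.07 ± 0.08. Lce3f read 155 and 223 in VC and 106 and 115 in N-CE, a log2 fold of -0.75 ± 0.29, and passed P on array 2 alone. Of the 29 members 26 lay below 0, with a median of -0.14 ± 0.04 against 0.01 over all measured genes. Hrnr had -0.15 and -0.03 on the 2 arrays, Rptn -0.39 and -0.31, and Tchhl1 -0.59 and -0.19. The single arrays left for Lor, Ivl and Flg2 read -0.12, 0.04 and -0.32.

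**Figure D4:**
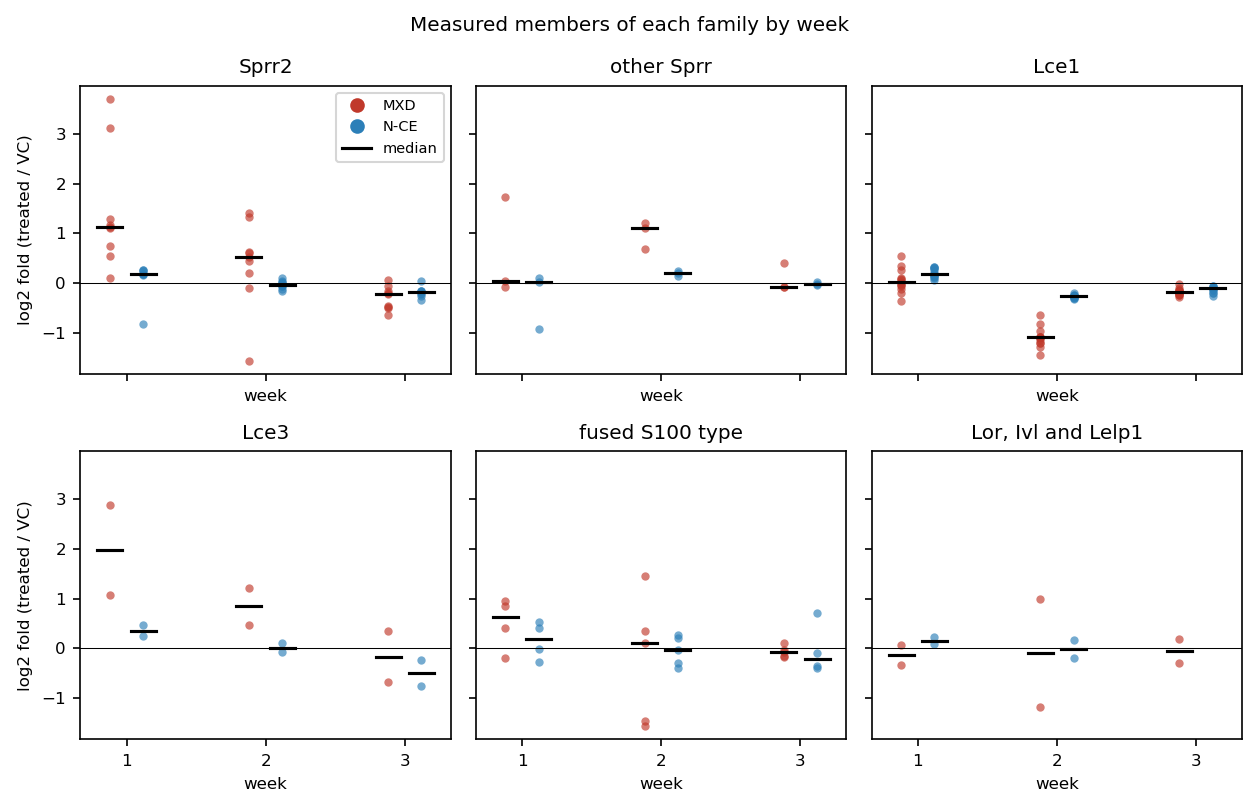
Mean log2 fold of each measured member by family, week and treatment, with the family median as a black bar. The MXD medians are 1.12 for Sprr2 at 1W and -1.09 for Lce1 at 2W, and the N-CE medians stay between -0.49 and 0.35.

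MXD and N-CE were set against each other within a week, where both are relative to the same VC pool. No test of a difference within a week was possible with 1 pool per treatment. At 1W the difference of log2 folds (MXD minus N-CE) had a median of 0.98 over the 9 Sprr2 genes (Sprr2f, below background in N-CE, among them), 1.63 over the Lce3 genes and -0.17 over the 13 Lce1 genes. It was 2.84 ± 0.26 for Sprr2d, 2.42 ± 0.22 for Lce3f, 1.93 ± 0.32 for Sprr2h, 1.70 ± 0.16 for Sprr1b and 1.23 ± 0.08 for Rptn, where the SDs combine those of both dye swaps. At 2W the median was -0.84 over 12 Lce1 genes, which ran from -1.19 to -0.39, and the difference was -1.26 ± 0.38 for Flg2, -1.04 ± 0.10 for Hrnr and 1.12 ± 0.07 for Lce3c. At 2W the largest single differences were those of Sprr2d (-1.55 ± 0.29) and Sprr2f (1.51 ± 0.23). At 3W the medians were -0.06 over 12 Lce1 genes, -0.04 over 8 Sprr2 genes and 0.32 over the 2 Lce3 genes. Single differences at 3W included -0.79 ± 0.08 for Flg, 0.58 ± 0.07 for Lce3c and 0.46 ± 0.06 for Rptn.

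With the 3 weeks as replicates, limma with Benjamini-Hochberg adjustment called no probe in either treatment or in their difference (0.0% in each of the 3 fits, over 41068 probes for MXD, 40895 for N-CE and 40820 for the difference). The fits test an effect common to the 3 weeks, so their result says nothing about a change seen in a single week. An unadjusted p below 0.05 was met by 3098 probes (7.54%) for MXD, 1490 (3.64%) for N-CE and 2021 (4.95%) for the difference. Among member probes it was met by 3 of 42, 0 of 37 and 4 of 37. The lowest p was that of Lce3c for MXD, with a mean log2 fold of 0.88 and an adjusted p of 0.626 in limma. Lce3c also had the lowest p for the difference, with 0.85 on the log2 scale and an adjusted p of 0.75 in limma.

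The vehicle skin itself differed between weeks in some members, read from the VC channels of 4 arrays a week (3 for Sprr2h and Lor at 3W). Week and slide cannot be told apart in these levels. The log2 signal of Sprr2h in VC was 7.55 ± 0.13 after 1W, 10.87 ± 0.29 after 2W and 11.78 ± 0.15 after 3W. Sprr1b had 7.12 ± 0.34, 9.32 ± 0.29 and 9.14 ± 0.07, and Lce3c 10.55 ± 0.07, 12.56 ± 0.24 and 12.42 ± 0.25. Lor had 15.83 ± 0.18, 16.15 ± 0.38 and 15.56 ± 0.22. Other members were lower in VC at 3W. Flg, the gene called in N-CE at 3W, had 10.77 ± 0.27, 10.22 ± 0.59 and 8.85 ± 0.38. Lce1e had 12.92 ± 0.08, 13.03 ± 0.19 and 12.14 ± 0.06. The VC levels of Sprr2h, Sprr1b and Lce3c at 2W, over which their folds were taken, lay above those of 1W by more than the SDs. Between the MXD and N-CE arrays of a week, the same VC RNA differed by a median of 0.09, 0.27 and 0.21 on the log2 scale over the members, and by at most 0.58, 1.07 and 0.59.

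Genes that work with the envelope gave the following counts, from lists set up with earlier results known. For these and the marker lists below, the shares over all measured genes were as follows. At MXD 2W 6.8% were called higher and 11% lower, at MXD 1W 1.34% and 1.36%, and at N-CE 1W 0.582% and 2.98%. Of 8 transglutaminases and peptidylarginine deiminases, which cross-link and citrullinate envelope and hair proteins, 4 were called higher and 2 lower at MXD 2W. Padi1 had a log2 fold of 1.36 ± 0.22 and Padi3, an enzyme of hair follicle and epidermis, 1.31 ± 0.20, while Padi2 had -1.39 ± 0.28. At N-CE 1W 3 of 8 fell, with Padi3 at -2.79 ± 0.10 and Padi1 at -2.10 ± 0.15. Of 30 regulators of terminal differentiation, 6 rose and 1 fell at MXD 2W, with Foxn1, a transcription factor of hair and epidermal differentiation, at 1.26 ± 0.44. No regulator was called at MXD 1W. Fos, a part of AP-1, was called higher in N-CE at 1W (1.41 ± 0.06) and at 2W (1.66 ± 0.04). Another regulator, 1 of the 30, was called lower in N-CE at 1W.

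Of 4 wound keratins 2 rose at MXD 1W and 3 at MXD 2W. Krt16 and Krt6b, keratins of activated epidermis, had log2 folds of 2.78 ± 0.20 and 1.81 ± 0.31 at MXD 1W and 0.81 ± 0.07 and 1.15 ± 0.04 at 2W, where Krt17 rose too, by 0.94 ± 0.46. At MXD 2W 4 of 8 epidermal keratins were called lower, Krt2 at -1.93 ± 0.30, Krt10 at -1.43 ± 0.39, Krt1 at -1.30 ± 0.93 and Krt78 at -1.27 ± 0.42. Krt2 was also called lower in N-CE at 2W (-1.34 ± 0.12) and higher in N-CE at 1W (0.71 ± 0.11). Of 24 further cornification genes 5 fell and 0 rose at MXD 2W, led by Krtdap at -1.56 ± 0.59 and Kprp at -0.93 ± 0.23, and the list's median was 0.04 ± 0.03. Of 15 barrier lipid genes 3 fell, with Aloxe3, a lipoxygenase of the lipid envelope, at -1.07 ± 0.53. At MXD 1W 1 of the 22 cornification genes measured then rose, Csta at 1.03 ± 0.07, and no lipid gene was called. Among S100 genes and trichohyalin, which share the complex, 3 of 13 rose at MXD 1W, 4 rose and 1 fell at MXD 2W, and 1 rose and 3 fell at N-CE 1W. S100a8 and S100a9 had 2.89 and 2.51 ± 0.14 at MXD 1W, and Tchh had 1.20 ± 0.14 at MXD 2W and -3.06 at N-CE 1W.

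**Figure D5:**
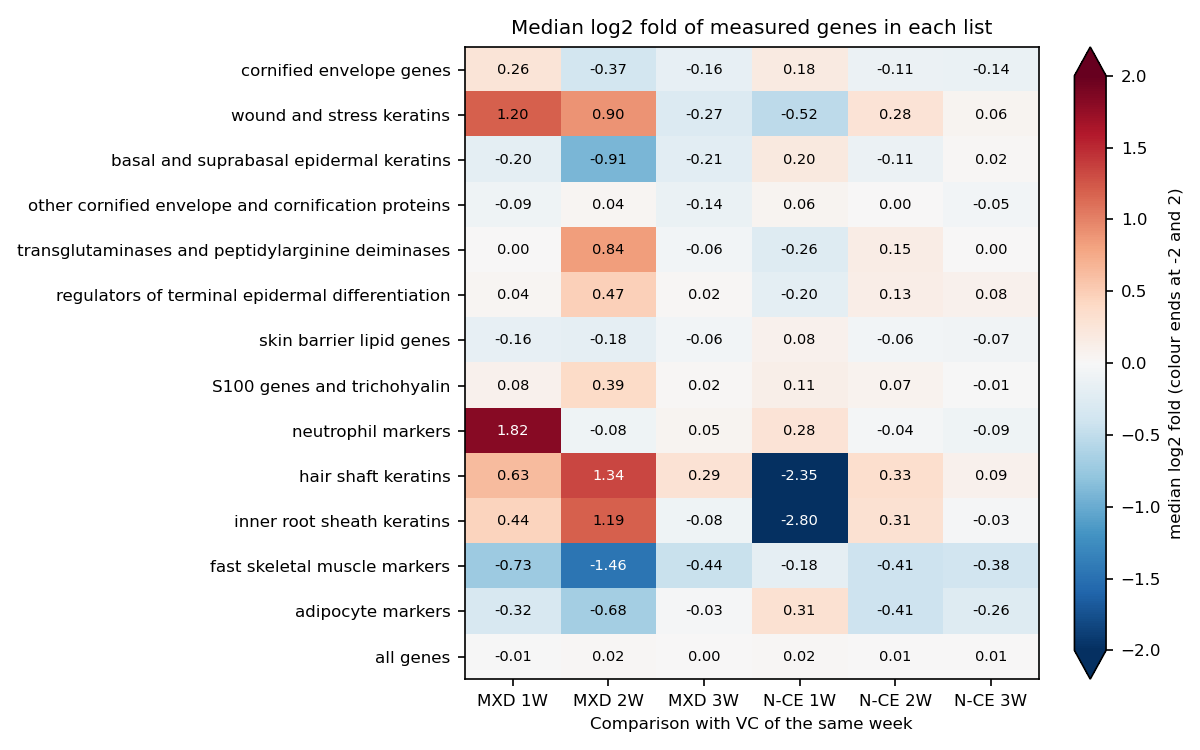
Median log2 fold of the measured genes of each list in the 6 comparisons, with the value printed in each cell. The cornified envelope genes are the top line and all measured genes the bottom line, which stays between -0.01 and 0.02.

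Markers of other cells moved in the same comparisons. At MXD 1W 5 of 7 measured neutrophil markers were called higher, their summed signal was 2903 to 3609 in VC and 16302 to 22288 in MXD, and the granule genes Ngp, Camp, Ltf and Elane were not well above background on both arrays in either group. With normexp the median of this list was 0.36 in place of 1.82. S100a8 and S100a9 belong to this list too and are also made by keratinocytes. Of 11 measured fast skeletal muscle markers, 7 were called lower and 1 higher at MXD 1W, with a median of -0.73 ± 0.05. Of 10 hair shaft keratins, 4 were called higher and 0 lower then, with a median of 0.63 ± 0.10. No inner root sheath keratin or adipocyte marker was called at MXD 1W, with medians of 0.44 ± 0.04 and -0.32 ± 0.02. At MXD 2W all 12 fast skeletal muscle markers were called lower, with a median of -1.46 ± 0.12 and sums of 864455 to 1173299.9 in VC and 286638 to 479648 in MXD. All 10 hair shaft keratins were called higher, with a median of 1.34 ± 0.35 and sums of 312445 to 330656 in VC and 731444 to 880352 in MXD. Adipocyte markers had 4 of 6 called lower. At N-CE 1W all 10 hair shaft keratins and all 5 inner root sheath keratins fell, with medians of -2.35 ± 0.20 and -2.80 ± 0.22, beside the falls of Sprr1a and Sprr2h. Their part in the values of the cornified envelope genes was not tested. The labelled tissue is skin, and 7 or 8 of the 8 epidermal keratins were measured in each comparison.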

How the data were processed

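DNA microarray data of 12 two-colour Agilent arrays were used. The authors deposited Feature Extraction output, version 12.0.3.1 per the file headers and 11.0.1.1 per the labels. Per the file headers, background was subtracted and dyes were normalized by LOWESS before the log10 ratio of Cy5 over Cy3 was taken. The authors' software derived a p-value for every ratio from its error model, as deposited. The deposited signal intensity of each channel was background-subtracted and dye-normalized by the authors' software. The log10 ratios of the authors' deposited series matrix were an alternative. Between 57.0% and 69.6% of 43379 transcript spots were well above background, which sets the precision of dim genes. Outlier spots (143 to 355 per array) were left out, every ratio was given as treated over VC, and repeat spots were averaged per probe. A gene took its probe with the highest mean signal. Lower bounds came from normexp, loess and Aquantile channels. Python 3.11.15, numpy 2.4.6, pandas 2.3.3, R 4.3.3 and limma 3.58.1 were used, and steps were tested on simulated data. Promoters came from RefSeq, with 41 of 42 member accessions matched to its table. Arrays were grouped by their labels. The members and gene lists were chosen with earlier results of these data known. By the rule for named genes, values per array are given for called members, for Lor, Flg, Flg2, Ivl, Hrnr, Rptn and Tchhl1 where measured, and for the 2 largest changes of a comparison. Up to 4 genes of another list are named. Alternatives were no P criterion, symmetric folds, normexp (offset 50) with loess, both groups above background, every probe, matrix ratios, each array alone and, for limma, each week left out, a filter and the slide as a random block.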

Additional observations from a re-analysis of the deposited data

Results flagged for a closer look

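Among pairs of comparisons that share a treatment or a week, family medians stood on opposite sides of 0, on both arrays of each comparison, in 11 pairs. None of these differences was tested, since each comparison is 1 pair of pools. Some of these medians lay near 0 on 1 array. For Sprr2 they included -0.01 on array 1 of MXD 3W and 0.03 on array 2 of N-CE 1W. The fused S100 type had -0.02 on array 2 of MXD 3W. The median log2 fold of the Sprr2 genes in MXD was higher at 1W than at 3W by 1.33 and higher at 2W than at 3W by 0.73, and in N-CE it was higher at 1W than at 3W by 0.35. The 2 Lce3 genes gave differences of 2.15 between MXD 1W and MXD 3W, 1.02 between MXD 2W and MXD 3W and 0.84 between N-CE 1W and N-CE 3W. Their MXD 3W median lies between 2 genes of opposite sign, Lce3c at 0.35 and the dim Lce3f at -0.68. With normexp and loess that median came to 0.0. For the Lce1 genes the N-CE median at 1W exceeded that at 2W by 0.45 and that at 3W by 0.28. The fused S100 type genes differed by 0.70 between MXD 1W and MXD 3W and by 0.42 between N-CE 1W and N-CE 3W. These medians are not over the same genes, since Tchhl1 was missing at 1W and Flg2 at N-CE 3W. Of the genes measured in both N-CE weeks, Flg went from -0.02 to 0.72, Hrnr from 0.54 to -0.09 and Rptn from -0.27 to -0.35. In N-CE, Sprr2 also lacked Sprr2f at 1W and Sprr2h at 3W, and Lce1 lacked Lce1f at 2W and 3W. Lor and Ivl together had a median difference of -0.28 between MXD 1W and N-CE 1W. The Lce1 genes of MXD at 1W and 2W are not among these pairs, because their 1W median lay on both sides of 0.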

How the results depend on the processing

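All 38 calls of single members kept their direction and passed the fold thresholds with normexp and loess, with symmetric folds and with each array alone. The P values were those of the deposited files throughout, so these settings tested the folds only. Dropping the P criterion could not remove a call, and the matrix ratios gave the same values, so neither bears on stability. Counts that moved by over 1.5 times were few. Without the P criterion 4 members in place of 0 were lower in MXD 3W and 1 in place of 0 in N-CE 3W. Counting every probe gave 1 higher in N-CE 1W in place of 0, the second Hrnr probe. With each array alone, the members higher in MXD 2W were 8 to 12, those lower in MXD 3W 0 to 5, those higher in N-CE 1W 0 to 1, those higher and those lower in N-CE 2W 0 to 1 each, and those lower in N-CE 3W 0 to 1. The median over members moved by more than the SD of the array medians in these cases: MXD 1W was 0.19 with both groups above background, MXD 2W was -0.38 with normexp and -0.69 over every probe, and N-CE 2W was -0.05 with normexp and -0.15 over every probe. Each array alone gave -0.39 to -0.38 in MXD 2W, -0.18 to -0.12 in MXD 3W, -0.15 to -0.13 in N-CE 2W and -0.15 to -0.10 in N-CE 3W. The setting with every probe adds the second probe of 6 genes. limma called 0 member probes in every setting, and with normexp and loess 16 of 37 member probes in place of 4 had an unadjusted p below 0.05 for MXD minus N-CE, where 6.47% of all probes did. Leaving out each week in turn, probes with an unadjusted p below 0.05 numbered 1800 to 3281 for MXD, 1403 to 4944 for N-CE (most without 1W) and 1330 to 4983 for the difference (most without 3W). The labels give no replicate numbers to pair by, and the limma fits of MXD minus N-CE within weeks and with the slide as a random block are the paired values there are. Signal over background limits the dim members: with normexp the log2 folds of Sprr2f and Lce3f at MXD 1W came to 0.62 and 1.71, and those of Sprr2d and Tchhl1 at MXD 2W to -0.93 and 0.79.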
